A study of Mus musculus with 8 samples.

Results

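The genes described here are 10 regulators of the passage from G1 into S phase: the D cyclins Ccnd1, Ccnd2 and Ccnd3, the E cyclins Ccne1 and Ccne2, and the CDK inhibitors Cdkn1a, Cdkn1b, Cdkn2a, Cdkn2b and Cdkn2c. They were chosen by name among the 49492 gene symbols of the series, and all 10 were found. RNA-seq was performed in mouse embryonic fibroblasts (MEFs) carrying Pontin WT or Pontin RA, kept in normal medium or under glucose starvation, with 2 replicates in each of the 4 groups. Pontin is an ATPase of chromatin-remodeling complexes, and RA carries alanine in place of the arginines that CARM1 methylates. According to the methods of the study, all cells descend from Pontin f/f MEFs made with the 3T3 protocol. They received Flag-tagged Pontin WT or RA by lentivirus under hygromycin selection and lost the endogenous gene upon Cre virus infection. Each genotype is thus a stably expressing line, and a difference between the lines cannot be told apart from a difference between the Pontin forms. Starved cells were washed and given glucose-free medium with dialyzed serum, so the media also differed in serum as far as the methods state, and the duration used for RNA-seq was not given in the sources used here.

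D cyclins are made in response to growth factors and activate CDK4 and CDK6, which phosphorylate the retinoblastoma protein and its relatives. E cyclins are made next and activate CDK2 at the onset of S phase. INK4 inhibitors, which include the products of Cdkn2a, Cdkn2b and Cdkn2c, bind CDK4 and CDK6 and block their pairing with D cyclins. CIP/KIP inhibitors, which include those encoded by Cdkn1a (p21) and Cdkn1b (p27), bind cyclin-CDK complexes and restrain CDK2. Cdkn2a also encodes ARF from a separate first exon and another reading frame. ARF protects p53 by inhibiting MDM2, and p53 in turn is an activator of Cdkn1a. Fibroblast lines made with the 3T3 protocol often escape senescence through loss of the Cdkn2a locus or of p53 function. FOXO factors, which the study examined, are known regulators of Cdkn1b and of D cyclin genes.

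Values are the CPM of the deposited table, read counts over a library size that had been scaled in each library, and rest on 43205841 to 56363034 reads per sample. At this depth the smallest read count behind any value of the 10 genes was 228. All 10 passed a filter of at least 1 in at least 2 samples, which left 16232 genes to test. Fibroblast identity was checked with 10 marker genes, of which 9 passed the same filter, and Lum stayed under 1 in every sample. Among markers of other cell types, Ptprc, Adgre1, Cd3e, Pecam1, Cdh5, Epcam, Krt5 and Krt14 stayed under 1 in every sample. The tested members of those lists moved with medium or genotype at low values. The macrophage gene Cd68 had mean values of 2.29 and 4.32 in WT with and without glucose and of 2.3 and 2.2 in RA. The endothelial gene Kdr had 2 and 6.39 in WT and 2.19 and 5.43 in RA, and the epithelial gene Cdh1 had 0.354 and 0.405 in WT and 0.238 and 1.17 in RA. Their part in the values below was not tested.

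Promoters of Ccnd3, Cdkn2a and Cdkn2b are shown, from RefSeq start sites on GRCm38.p6, and their bearing on the expression values was not tested. The RefSeq table matched 7 of the 10 genes with 11 start sites, and had none for Ccnd1, Ccnd2 and Ccne2. The 250 bases before each start were searched on both strands for E2F words (TTTCCCGC, TTTGGCGC, TTTGCCGC and TTTCGCGC), a FOXO word (TGTTTAC), a CREB word (TGACGTCA) and an Sp1 word (GGGCGG). An E2F, a FOXO and a CREB word each stood before 1 of the 11 starts, and no E2F, FOXO or CREB matches overlapped. Of all 32851 start sites in the table, 1.86% had an E2F word, 3.17% the FOXO word and 1.55% the CREB word. The Sp1 word stood before 7 of the 11 starts, against 32.7% of all. Ccnd3 is shown at the start that held the FOXO word, on the plus strand of chromosome 17 at chr17:47504801-47505050. Another start of Ccnd3 lies downstream, at base 47593467, and no FOXO word stood before it. Cdkn2a is shown with both of its starts because the table of expression values holds 1 value for both, on the minus strand of chromosome 4 at chr4:89294654-89294869 for the upstream start and chr4:89282193-89282442 for the downstream start. Cdkn2b, its neighbour on the same strand, is shown because it held the CREB word, at chr4:89311040-89311282. Each is written 5′ to 3′, without the bases that GENCODE counts as exon, and capitals mark the E2F, FOXO or CREB word.
Ccnd3: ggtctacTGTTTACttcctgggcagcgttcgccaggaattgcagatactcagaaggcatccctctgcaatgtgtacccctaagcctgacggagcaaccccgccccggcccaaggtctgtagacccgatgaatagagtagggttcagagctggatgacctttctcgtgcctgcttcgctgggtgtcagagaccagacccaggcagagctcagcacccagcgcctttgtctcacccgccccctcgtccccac
Cdkn2a upstream start: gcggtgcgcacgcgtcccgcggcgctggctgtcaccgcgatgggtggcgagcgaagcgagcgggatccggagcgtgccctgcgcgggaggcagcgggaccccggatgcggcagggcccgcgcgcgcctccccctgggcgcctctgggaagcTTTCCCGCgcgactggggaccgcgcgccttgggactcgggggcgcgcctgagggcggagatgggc
Cdkn2a downstream start: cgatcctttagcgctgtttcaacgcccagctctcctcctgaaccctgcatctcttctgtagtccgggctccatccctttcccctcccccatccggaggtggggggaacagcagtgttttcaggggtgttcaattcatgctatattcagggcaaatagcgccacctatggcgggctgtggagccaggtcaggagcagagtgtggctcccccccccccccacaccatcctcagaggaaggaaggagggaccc
Cdkn2b: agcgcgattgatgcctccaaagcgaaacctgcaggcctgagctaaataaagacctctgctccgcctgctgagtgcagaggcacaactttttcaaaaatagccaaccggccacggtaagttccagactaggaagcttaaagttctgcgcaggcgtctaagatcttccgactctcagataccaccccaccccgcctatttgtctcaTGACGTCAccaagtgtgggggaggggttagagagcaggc
The FOXO word of Ccnd3 began 243 bases before the start shown. The E2F word of the upstream Cdkn2a start began 99 bases before it, and the CREB word of Cdkn2b 46 bases before its start. A match of letters is a description and does not show that a factor binds there.

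To compare levels between genes, values were divided by the length of all annotated exons of each gene in kilobases. The order of the genes depends on these lengths, which cover all annotated transcripts and not only those in use. In WT in normal medium Cdkn2a was highest at 283 per kilobase, followed by Ccnd1 (71.7), Cdkn2b (43.4), Ccnd2 (36.5) and Ccnd3 (21.0). Next came the E cyclins Ccne1 (15.6) and Ccne2 (14.8), then Cdkn1b (9.07), Cdkn2c (8.16) and Cdkn1a (2.84). No neighbours in this order overlapped between their replicates. In starved WT Cdkn2a was still highest (179 per kilobase), Ccnd2 came next (33.0), and Ccnd1 was ninth of the genes at 3.34. There the replicates of Ccne1 (6.96 and 7.88 per kilobase) spanned those of Ccnd3 (7.10 and 7.31), and those of Cdkn1a (5.17 and 6.46) spanned those of Cdkn1b (5.05 and 5.21) in part. In starved RA Ccnd1 took the fourth place at 17.1 per kilobase, and Cdkn2b (37.2) exceeded Ccnd2 (34.8).

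**Figure D1:**
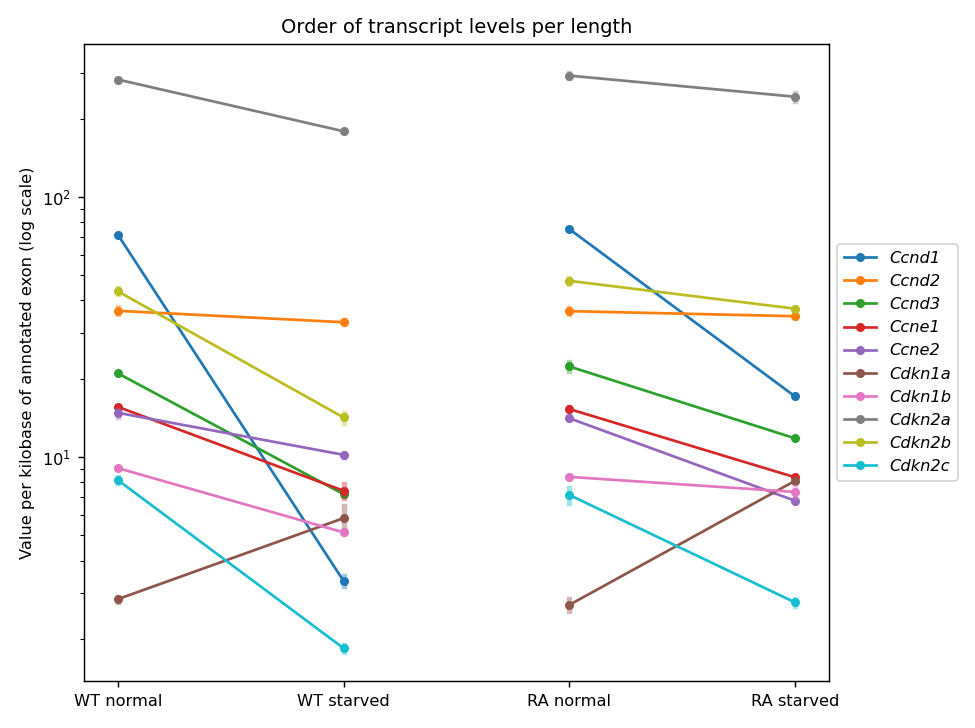
Mean value per kilobase of annotated exon for each of the 10 genes in the 4 groups, on a log scale. Lines join normal medium to starvation within a genotype, and pale vertical bars span the 2 replicates. In WT Ccnd1 dropped from 71.7 to 3.34 and in RA from 75.3 to 17.1, while Ccnd2 stayed between 33.0 and 36.5 in all groups.

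Upon glucose starvation 4 of the 5 cyclin genes fell in both genotypes, Ccnd2 fell in WT, and Cdkn1a rose in both. In WT all 10 genes were called between starvation and normal medium (limma, adjusted p under 0.05), where 78.6% of all tested genes were called. Of these 9 fell, against 39.2% of all tested genes, and Cdkn1a rose. Their median log2 change was -0.92, against 0.00488 over all tested genes. In RA 9 of the 10 genes were called, against 68.7% of all tested genes. There 8 fell, against 33.7% of all tested genes, Cdkn1a rose and Ccnd2 was not called, and the median log2 change was -0.60, against 0.01 over all tested genes. A change of at least 2-fold was counted on the log2(value + 1) scale of the fits. It was reached by 5 of the genes in WT (19.6% of all tested genes) and by 4 in RA (9.03%). Cdkn1a fell short of it in WT, where its ratio of means was 2.05. Values in starved and normal cells did not overlap for any of the genes in either genotype, which with 2 replicates held for 88.7% of all tested genes in WT and for 83.3% in RA.

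The response itself differed between the genotypes for 8 of the 10 genes by the interaction of genotype and medium, against 50.6% of all tested genes. It was higher in RA for 7 of them, against 24.5% of all tested genes, and at least 2-fold for 2 (Ccnd1 and Cdkn2b), against 6.1%. The median interaction was 0.57, against -0.01 over all tested genes. Of the 8 genes that fell in both genotypes, 6 fell less in RA (Ccnd1, Ccnd3, Cdkn1b, Cdkn2a, Cdkn2b and Cdkn2c), 1 fell more (Ccne2), and Ccne1 was not called. Cdkn1a, the gene that rose, rose more in RA. In bulk samples, fewer cells that express a gene and less RNA per cell cannot be told apart.

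**Figure D2:**
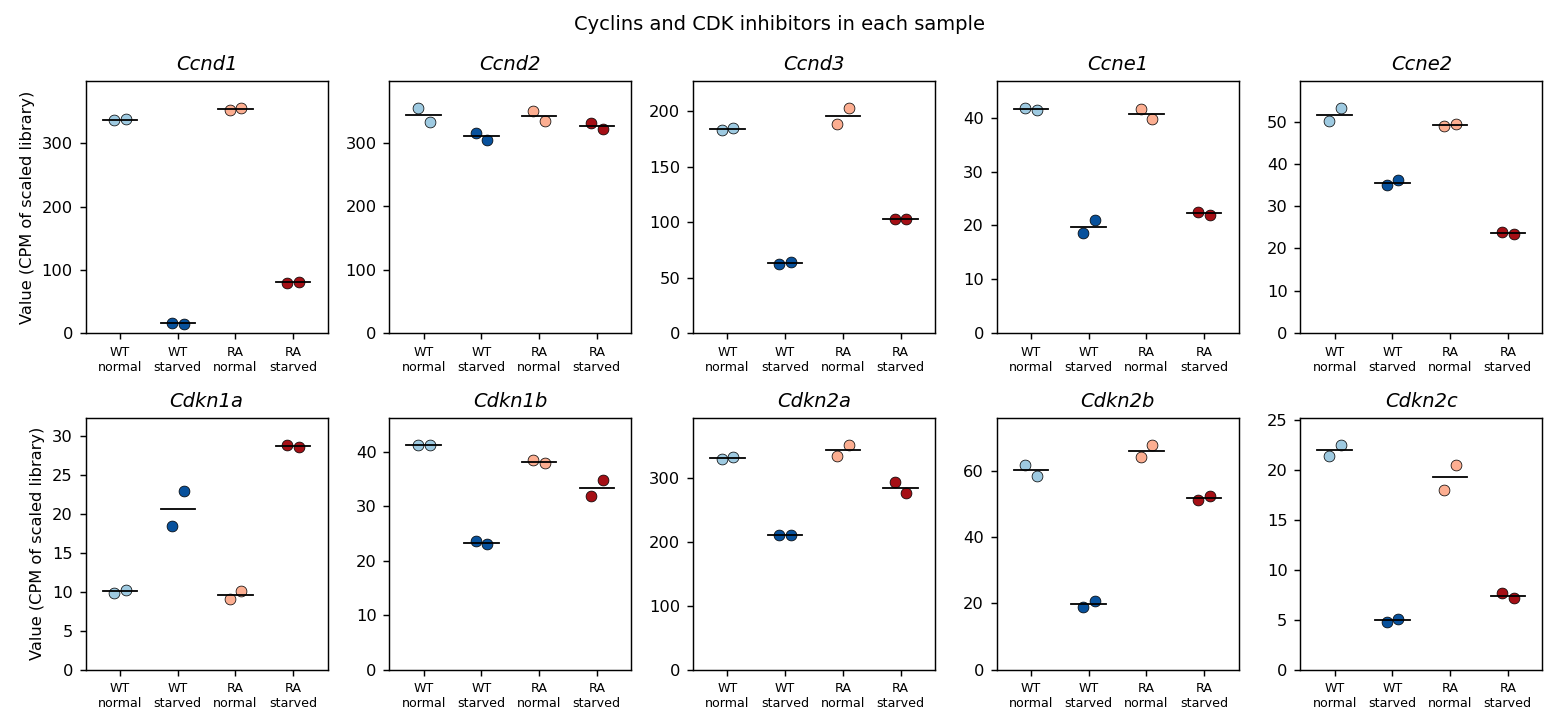
Value of each gene in every sample, in CPM of the scaled library size, with an axis from 0 in each panel. Points are single samples and black lines are the means of the 2 replicates. Starved WT (dark blue) lies below starved RA (dark red) in 9 of the 10 panels, and above it for Ccne2.

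Positions are given on GRCm38. Ccnd1 (chr7:144929931-144939925, minus strand) encodes cyclin D1, the D cyclin most closely tied to mitogen signals in fibroblasts. The WT replicates read 337 and 338 with glucose and 16.5 and 15 without. The RA replicates read 353 and 356 with glucose and 79.9 and 81.4 without. Both starved groups were thus far below both normal groups, and starved RA lay about 5-fold above starved WT (ratio of means 5.13). In WT the log2 change was -4.34 (SE 0.0441, limma adjusted p = 1.72e-20), with a mean that was 21.5-fold lower, and it ranked 12th from the lowest of the 16232 tested genes. In RA the log2 change was -2.12 (SE 0.0441, limma adjusted p = 2.18e-16) and ranked 70th from the lowest. The responses differed by 2.22 (SE 0.0624, limma adjusted p = 2.8e-14). The exons of Ccnd1 share 1100 bases (23.4% of their length) with those of Oraov1 on the opposite strand in GRCm38, and the sources used here do not say to which gene such reads were given. Oraov1 had mean values of 180 with glucose and 25.4 without in WT, and of 197 and 64.3 in RA, and the part of shared reads in the change of Ccnd1 was not tested.

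Ccnd2, which encodes cyclin D2 (chr6:127125162-127152193, minus strand), moved least of the set. The WT replicates read 355 and 333 with glucose and 316 and 305 without, and the RA replicates 351 and 334 with glucose and 332 and 322 without. The log2 change was -0.15 in WT (SE 0.0421, limma adjusted p = 0.0045). Without replicate 1 of WT in normal medium it was -0.10 and no longer called (limma adjusted p = 0.0972). In RA the log2 change was -0.06 with a 95% interval from -0.15 to 0.02 (limma adjusted p = 0.183), and the interaction was 0.08, with an interval from -0.04 to 0.21 (limma adjusted p = 0.271). The exons of Ccnd2 share 372 bases with those of Gm43126 and 368 with those of 9330179D12Rik, both on the opposite strand.

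Ccnd3, which encodes cyclin D3 (chr17:47505051-47599691, plus strand), fell in both genotypes, and it fell less in RA. For this gene the WT replicates read 183 and 185 with glucose and 62.3 and 64.2 without, and the RA replicates 189 and 203 with glucose and 103 and 103 without. Starvation gave a log2 change of -1.53 in WT (limma adjusted p = 1.74e-15) and -0.92 in RA (limma adjusted p = 4.44e-12). The difference between them was 0.61 (SE 0.059, limma adjusted p = 2.7e-07). Its exons share 361 bases with those of Bysl on the opposite strand. The Ccnd3 window shown above was the 1 of the 11 searched windows with the FOXO word. The value of Ccnd3 does not tell its starts apart.

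Since Ccnd1 fell most and Ccnd2 least, the makeup of the D cyclins shifted. Per kilobase, the 3 genes summed to 130 and 128 with glucose and 44.2 and 42.9 without in WT, and to 134 and 134 with glucose and 64.1 and 63.2 without in RA. In WT Ccnd1 made up 54.9% and 56.0% of this sum with glucose and 7.91% and 7.41% without. In RA its share went from 56.1% and 56.4% to 26.5% and 27.3%. Ccnd2 took the larger part under starvation, with 76.0% and 75.5% in WT and 55.1% and 54.1% in RA, and Ccnd3 stayed between 16.1% and 18.6% in every sample. These shares were not tested. They rest on the length of all annotated exons, 4709 bases for Ccnd1, 9409 for Ccnd2 and 8775 for Ccnd3. Which transcripts were in use is not known here, and a shorter length would raise the share of a gene.

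**Figure D3:**
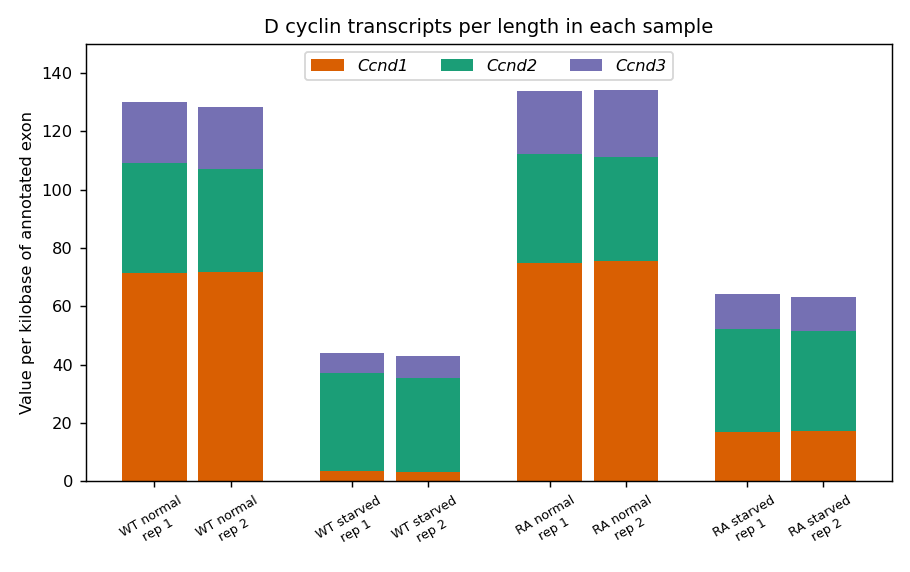
Stacked values per kilobase of annotated exon of the 3 D cyclin genes in each of the 8 samples, from 0. In WT the orange Ccnd1 part shrinks from 71.7 to 3.34 and in RA from 75.3 to 17.1, and the green Ccnd2 part keeps nearly the same height.

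The E cyclins fell in both genotypes. For Ccne1, which encodes cyclin E1 (chr7:38097984-38107534, minus strand), the WT replicates read 41.8 and 41.4 with glucose and 18.5 and 21 without, and the RA replicates 41.6 and 39.7 with glucose and 22.5 and 22 without. It fell by 1.04 on the log2 scale in WT (limma adjusted p = 1.22e-10) and fell by 0.84 in RA (limma adjusted p = 3.97e-09). The interaction of 0.20 was not called (95% interval 0.01 to 0.39, limma adjusted p = 0.08). It was called with total-read scaling (0.27, limma adjusted p = 0.0229), with edgeR on recovered reads (0.23, edgeR adjusted p = 0.0441) and without replicate 2 of starved WT (0.28, limma adjusted p = 0.0177). Without replicate 1 of starved WT it was 0.11 (limma adjusted p = 0.32), the lowest value with 1 sample left out.

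Ccne2, which encodes cyclin E2 (chr4:11191351-11204779, plus strand), was the 1 gene of the set that fell more in RA. Here the WT replicates read 50.1 and 53.2 with glucose and 35 and 36.1 without, and the RA replicates 49 and 49.4 with glucose and 24 and 23.5 without. Starved RA was the lowest group, with a mean 33.3% below starved WT. Starvation gave a log2 change of -0.52 in WT (limma adjusted p = 8.51e-08) and -1.02 in RA (limma adjusted p = 2.36e-11), a difference of -0.50 (SE 0.0747, limma adjusted p = 3.71e-05). Its exons share 609 bases (17.4%) with those of Ints8 on the opposite strand, with mean values of 93.6 and 47.1 in WT with and without glucose and of 91.4 and 51.6 in RA. Within the E cyclins, Ccne1 made up 52.3% and 50.5% of the summed value per kilobase with glucose and 41.0% and 43.3% without in WT, and 52.7% and 51.4% with glucose and 55.2% in each sample without in RA.

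The CIP/KIP genes Cdkn1a and Cdkn1b moved in opposite directions. For Cdkn1a, which encodes p21 (chr17:29090976-29100727, plus strand), the WT replicates read 9.87 and 10.3 with glucose and 18.4 and 22.9 without, and the RA replicates 9.1 and 10.1 with glucose and 28.9 and 28.6 without. Every starved sample was above every normal sample, and starved RA was the highest group. Cdkn1a rose by 0.96 in WT (SE 0.0936, limma adjusted p = 5.6e-08) and by 1.49 in RA (SE 0.0936, limma adjusted p = 2.96e-10) on the log2 scale, and by 0.53 more in RA (SE 0.132, limma adjusted p = 0.00309). The rise in RA ranked 247th from the highest of all tested genes, and that in WT 1404th. The exons of Cdkn1a share 273 bases (7.68%) with those of AC167363.2 on the opposite strand, for which no value was found.

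Cdkn1b, which encodes p27 (chr6:134920401-134925513, plus strand), fell. Of this gene the WT replicates read 41.3 and 41.3 with glucose and 23.7 and 23 without, and the RA replicates 38.5 and 37.9 with glucose and 31.9 and 34.9 without. Starvation gave a log2 change of -0.80 in WT (limma adjusted p = 1.08e-09) and -0.19 in RA (limma adjusted p = 0.00806), and the difference was 0.61 (SE 0.0817, limma adjusted p = 1.14e-05). The call in RA was lost without replicate 1 of starved RA (log2 change -0.13, limma adjusted p = 0.131). Per kilobase, Cdkn1a made up 23.4% and 24.2% of the sum of Cdkn1a and Cdkn1b with glucose and 49.8% and 56.1% without in WT, against 23.2% and 25.4% with glucose and 53.7% and 51.2% without in RA. The sum was 11.9 and 12 with glucose and 10.4 and 11.5 without in WT, and 11 and 11.2 with glucose and 15.2 and 15.7 without in RA.

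The INK4 genes of the set, Cdkn2a, Cdkn2b and Cdkn2c, were all expressed, and all 3 fell upon starvation. For Cdkn2a (chr4:89274471-89294653, minus strand) the WT replicates read 330 and 333 with glucose and 210 and 210 without, and the RA replicates 335 and 352 with glucose and 294 and 276 without. Starved WT was therefore the lowest group, and starved RA lay between it and the normal groups. Starvation gave a log2 change of -0.66 in WT (limma adjusted p = 9.97e-11) and -0.27 in RA (limma adjusted p = 1.4e-05), with a difference of 0.39 (SE 0.0567, limma adjusted p = 2.66e-05). The value holds reads of both the p16 and the ARF transcripts, which start at the separate promoters shown above, and does not tell them apart. For Trp53, the gene for p53, the WT replicates read 161 and 169 with glucose and 180 and 184 without, and the RA replicates 158 and 170 with glucose and 156 and 152 without. Trp53 rose in WT (log2 change 0.14, limma adjusted p = 0.00661), was not called in RA (-0.08, limma adjusted p = 0.0881), and was lower in starved RA than in starved WT (-0.23, limma adjusted p = 0.000141).

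Cdkn2b, which encodes p15 and lies next to Cdkn2a (chr4:89306299-89311039, minus strand), showed a larger difference between the genotypes. In values, the WT replicates read 61.9 and 58.6 with glucose and 18.8 and 20.6 without, and the RA replicates 64.3 and 67.9 with glucose and 51.1 and 52.3 without. Its mean in starved RA was 2.62 times that in starved WT. Starvation gave a log2 change of -1.57 in WT (limma adjusted p = 5.73e-14) and -0.35 in RA (limma adjusted p = 2.85e-05), and the interaction of 1.22 (SE 0.0784, limma adjusted p = 1.8e-09) was the second highest of the set after that of Ccnd1. For Mtap, a neighbour of this locus, the WT replicates read 189 and 196 with glucose and 74.7 and 77.5 without, and the RA replicates 192 and 203 with glucose and 86.7 and 88.6 without. Mtap changed by -1.33 in WT against -1.16 in RA on the log2 scale, an interaction of 0.17 (limma adjusted p = 0.0274).

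Cdkn2c, which encodes p18 (chr4:109660876-109667189, minus strand), was the lowest of the 3 INK4 genes of the set. By sample, the WT replicates read 21.4 and 22.5 with glucose and 4.78 and 5.12 without, and the RA replicates 18 and 20.5 with glucose and 7.64 and 7.19 without. It fell by 1.95 on the log2 scale in WT (limma adjusted p = 2.82e-12) and fell by 1.26 in RA (limma adjusted p = 1.97e-09), with a difference of 0.68 (SE 0.129, limma adjusted p = 3.22e-04). Since the transform adds 1 to each value, these understate the fall of this low gene, whose mean was 4.43-fold lower in starved WT and 2.59-fold lower in starved RA.

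The genotypes were then compared within each medium. In normal medium none of the 10 genes was called between RA and WT by limma, where 9.63% of all tested genes were called, and 0 were called by edgeR and by DESeq2. Unadjusted, 2 of them were under 0.05 by limma, Ccnd3 with a log2 difference of 0.09 and Cdkn2b with 0.13 (95% interval 0.01 to 0.25). The differences ran from -0.18 for Cdkn2c (95% interval -0.38 to 0.01) to 0.13 for Cdkn2b. Single libraries weighed on these values. Without replicate 1 of normal RA the difference was -0.09 for Cdkn2c and 0.14 for Ccnd3, and without replicate 2 of normal RA it was -0.27 for Cdkn2c and 0.04 for Ccnd3. The values of the 2 genotypes did not overlap for 7 of the genes, against 53.2% of all tested genes.

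Under starvation 9 of the 10 genes were called, against 62.9% of all tested genes, and 8 were higher in RA, against 30.8% of all tested genes. The values of WT and RA did not overlap for any of the 10, which held for 81.5% of all tested genes. A 2-fold difference was reached by Ccnd1 and Cdkn2b, 2 of the 10 genes, against 6.7% of all tested genes. For Ccnd1 the log2 difference of RA minus WT was 2.29 (SE 0.0441, limma adjusted p = 4.05e-17) and for Cdkn2b it was 1.35 (SE 0.0554, limma adjusted p = 1.62e-12). Ccnd3 was higher by 0.70, Cdkn2c by 0.50, Cdkn1b by 0.50, Cdkn1a by 0.47 and Cdkn2a by 0.44. Ccne2 was lower in starved RA by a log2 difference of -0.56 (SE 0.0529, limma adjusted p = 8.42e-08). Ccne1 was higher by 0.17 (SE 0.0642, limma adjusted p = 0.0327), a call lost without the filter (limma adjusted p = 0.0712) and with DESeq2 on recovered reads (DESeq2 adjusted p = 0.0965). It was also lost without replicate 1 of starved WT (0.08, limma adjusted p = 0.335), without replicate 1 of starved RA (0.15, limma adjusted p = 0.13) and without replicate 2 of starved RA (0.18, limma adjusted p = 0.0738), and without replicate 2 of starved WT the difference was 0.25. Ccnd2 differed by 0.07 (95% interval -0.01 to 0.16, limma adjusted p = 0.134).

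**Figure D4:**
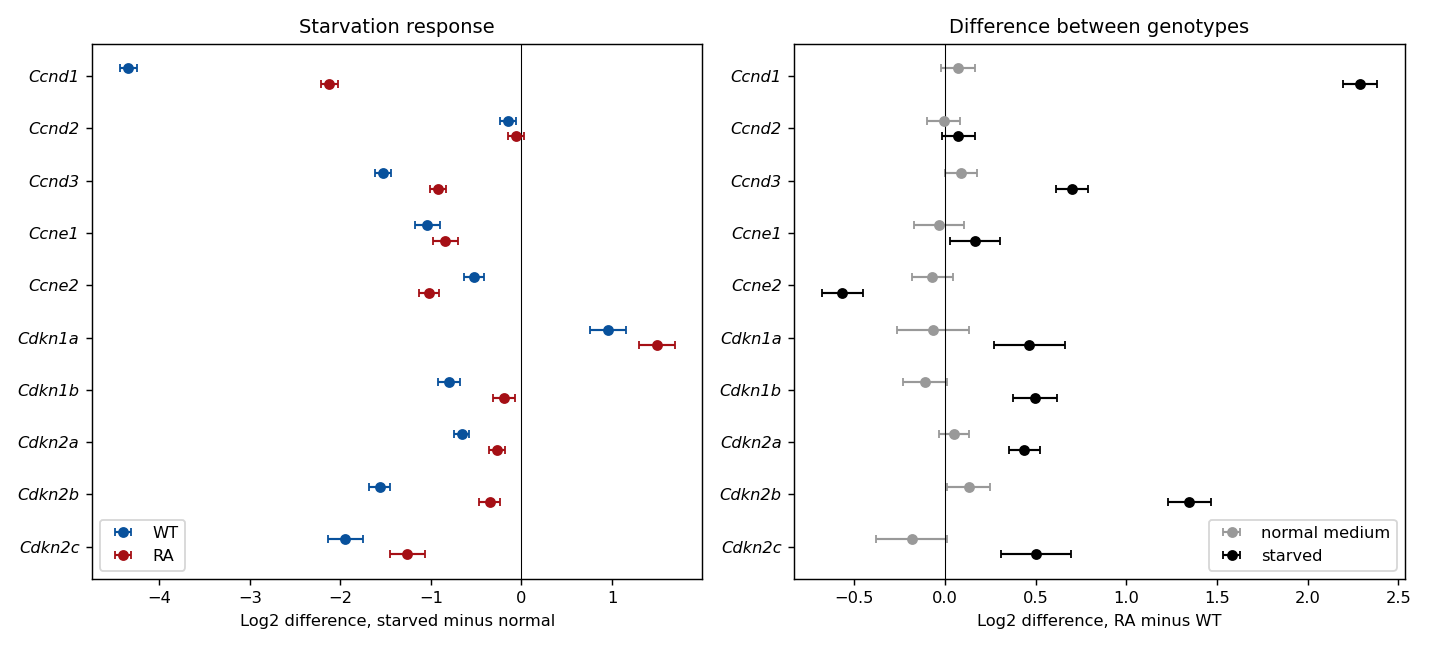
Left, log2 change upon starvation in WT (blue) and RA (red), and right, log2 difference of RA minus WT in normal medium (grey) and under starvation (black), for each of the 10 genes. Points are estimates on the log2(value + 1) scale and bars are 95% intervals from the limma fit. In the left panel Ccnd1 sits at -4.34 in WT and -2.12 in RA, and in the right panel its difference goes from 0.07 to 2.29.

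The partners of these proteins were read from the same fits. Of 8 kinases and activators of G1, 1 rose and 4 fell in WT, where 78.6% of all tested genes were called, and 1 rose and 5 fell in RA, where 68.7% were called. In WT the lowest was Ccna2, the cyclin that follows the E cyclins, with a log2 change of -2.68, and the highest was Cdk4, the partner of D cyclins, with 0.34. Cdk6, the other partner of D cyclins, had a log2 change of -2.27 in WT against -1.40 in RA, with an interaction of 0.87. Cdk2, the partner of E cyclins, had a log2 change of -0.42 in WT against -0.79 in RA, with an interaction of -0.37. In RA Cdk4 had a log2 change of -0.05 that was not called, and its interaction was -0.39, opposite in sign to those of Cdk6, Ccnd1 and Ccnd3. All 3 kinases had a called interaction (limma adjusted p = 7e-08 for Cdk6, 4.14e-05 for Cdk4 and 0.000197 for Cdk2). Among the kinases and activators, 6 of 8 were called for the interaction, 2 higher and 4 lower in RA, against 50.6% of all tested genes called and 24.5% higher.

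Outside the set, other genes named as CDK inhibitors are Cdkn1c of the CIP/KIP family, Cdkn2d of the INK4 family and Cdkn3, of neither family. In WT they all fell, by log2 changes of -1.08, -2.46 and -2.57, against 39.2% of all tested genes that fell. In RA Cdkn2d and Cdkn3 fell (-1.86 and -1.96), against 33.7% of all tested genes that fell. Cdkn1c, which encodes p57, had a log2 change of 0.15 there that was not called. All 3 had a called interaction higher in RA, against 24.5% of all tested genes, with Cdkn1c at 1.23. For Cdkn1c the WT replicates read 15.6 and 15 with glucose and 6.62 and 6.72 without, and the RA replicates 14.5 and 14.3 with glucose and 15.2 and 16.9 without. Both starved RA samples were above both normal RA samples.

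Genes for the turnover of cyclins and inhibitors were read next. Of 7 such genes, 4 fell and 1 rose in each genotype, against 39.2% of all tested genes that fell in WT and 33.7% in RA. Only Cks1b had a called interaction, against 50.6% of all tested genes. Skp2, the F-box protein that marks p27 for degradation, had a log2 change of -1.25 in WT and -1.22 in RA, and the highest change was that of Ambra1, a ligase adaptor for D cyclins, with 0.47 in WT and 0.46 in RA. The retinoblastoma family, the substrates of these kinases, has 3 genes. All of them fell in WT, from -0.29 for Rb1 to -0.52 for Rbl1, against 39.2% of all tested genes that fell. Rbl2 had the 1 called interaction (0.28), against 50.6% of all tested genes.

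Markers of proliferation fell in both genotypes alongside the cyclins. Of 12 such genes, 10 fell and 1 rose in WT, and all 12 fell in RA, against 39.2% and 33.7% of all tested genes that fell. Their summed value was 2030 to 2050 with glucose and 756 to 763 without in WT, against 1970 to 1980 and 726 to 736 in RA. The sums hide changes both ways. Under starvation 7 of the 12 were higher in RA than in WT, against 30.8% of all tested genes. Another 4 were lower, against 5206 of the 16232 tested genes. The median log2 difference of the 12 was 0.25. The differences ran from Plk1 (1.05) and Ccnb1 (1.02), which act in mitosis, to the replication factor Pcna (-0.57). The interaction was called for 11 of the 12, against 50.6% of all tested genes. The 10 fibroblast markers also moved with starvation, with sums of 8520 to 8690 with glucose and 3160 to 3240 without in WT, against 8470 to 8820 and 4190 to 4200 in RA. Of the 9 that were tested, 8 were higher in starved RA than in starved WT, against 30.8% of all tested genes. The part of these shifts in the values of the cyclins and inhibitors was not tested. The study reported that MEFs with mutant Pontin died earlier under glucose starvation than WT MEFs. It named that mutant RK in its text and RA in the figure legend. The part of cell death in the values here was not tested.

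Genes with the most similar pattern were sought by Pearson correlation of log2(value + 1) over the 8 samples, among 10497 other genes with a mean value of at least 10. The samples share 4 groups, so high coefficients are common, and they are given as a description. Ccnd1 was most like Cdc42ep2 (r = 0.9995), Wnt5a (0.9994) and Ptrf (0.9993), and 284 genes exceeded 0.99. Ccnd3 was most like Anxa2 (0.9997), Oraov1 (0.9994), which overlaps Ccnd1, and Pcdhgc3 (0.9993). Ccne1 was most like Cbx3-ps7 (0.9987), Ints8 (0.9984), which overlaps Ccne2, and Gm17233 (0.9983). Ccne2 was most like Amd1 (0.999), Amd2 (0.9986), a near copy of Amd1 that may share reads with it, and Gspt1 (0.9978). The patterns of the INK4 genes led to Sh3gl1 (0.9982) for Cdkn2a, Phlda1 (0.9988) for Cdkn2b and Jade2 (0.9984) for Cdkn2c, and that of Cdkn1b to Dock11 (0.9967). Only 4 genes exceeded 0.99 for Cdkn1a, led by Orc4 (0.9938), and none did for Ccnd2, whose nearest was Miga1 (0.9638).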

How the data were processed

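RNA-seq was done in 8 libraries, 2 per group. Per the labels and the methods of the study, polyA libraries were made with the TruSeq kit and mapped to mm9 with TopHat2 (version 2.0.9). The labels also list bedtools and edgeR, without versions. The annotation and strand handling are not given in the sources used here. The authors deposited 1 table in which each signal is the CPM of a gene, its reads over a scaled library size. Groups came from the sample titles, and the table's minus and plus were read as normal medium and starvation, as the study marks them. All nonzero values were whole multiples of 1 read (tolerance 0.01 reads), so reads were recovered. The study sequenced paired ends, so a recovered read may not be a separate fragment. Of the recovered counts from 1 to 9, 78.2% to 80.5% were even. Whether both ends of a fragment were counted was not tested.

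Group means of log2(value + 1) were fitted over all 8 samples with limma (version 3.58.1, under R version 4.3.3) and its trended prior, on the 16232 genes that reached 1 in 2 or more samples. Tests were 2-sided, p-values were adjusted by Benjamini-Hochberg over all of these genes, and calls were made at adjusted values under 0.05. Fold changes on this scale understate the change of low genes. The plan assumed plain CPM, and the same test was kept for the scaled values. Alternatives were a pseudocount of 0.1, no filter, total-read and median-ratio scaling, the replicate number as a block, edgeR (version 4.0.16) with TMM and DESeq2 (version 1.42.0) on recovered reads, stricter thresholds and leaving out each sample. The pipeline was tested on simulated counts. No source says that replicates were separate cultures, so p-values measure the spread between these samples, which may be technical, and read totals cover counting error only.

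The 10 genes and the lists of partners and markers were chosen by name with earlier results of these data known. Named genes were the 10, the extremes of each list, any other list gene where its list is described, and up to 3 of the most correlated genes per member. Exon lengths, overlaps and promoters are from GENCODE and RefSeq on GRCm38, which is not the build of the files.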

Additional observations from a re-analysis of the deposited data

Results flagged for a closer look

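For 8 of the 10 genes WT and RA responded differently to starvation by the interaction test of limma (response in RA minus response in WT, on the log2 scale). The difference was 2.22 for Ccnd1 (adjusted p = 2.8e-14), 1.22 for Cdkn2b (adjusted p = 1.8e-09), 0.684 for Cdkn2c (adjusted p = 3.22e-04), 0.61 for Ccnd3 (adjusted p = 2.7e-07), 0.608 for Cdkn1b (adjusted p = 1.14e-05), 0.532 for Cdkn1a (adjusted p = 0.00309) and 0.389 for Cdkn2a (adjusted p = 2.66e-05). For Ccne2 it was -0.496 (adjusted p = 3.71e-05). All 8 kept their call and direction under every alternative that used the 0.05 threshold without a required fold change. Samples far from their group could not be sought, since each group holds 2.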

How the results depend on the processing

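Calls were also counted with a 2-fold change required on the log2(value + 1) scale. The count was then 5 of 10 for starvation in WT and 4 for starvation in RA. It was 2 for RA against WT under starvation and 2 for the interaction. At an adjusted p under 1e-05, 3 of 10 kept a called interaction. The other counts of called genes stayed within 1.5 times the main count under every alternative. Leaving out 1 sample at a time reversed the sign of 3 differences between genotypes in normal medium, none of them called, with ranges of -0.0539 to 0.0400 for Ccnd2, -0.0649 to 0.00123 for Ccne1 and -0.132 to 2.69e-04 for Cdkn1a. No sign turned under the other alternatives. Replicate numbers are shared by the groups. Same-numbered samples deviated together with correlations across genes of -0.00764 to 0.157 over the pairs of groups, over 0.1 for 2 of the pairs. These values cannot tell whether same-numbered samples shared a batch or culture. With the replicate block the counts of called genes were 0 for RA against WT in normal medium, 9 under starvation, 10 for starvation in WT, 9 in RA and 8 for the interaction, and no call of a gene changed. Total-read scaling moved the median difference of all genes by -0.07 in WT upon starvation and by 0.0683 in the interaction, and changed 1 of 50 calls (Ccne1). The share of all calls that were higher in RA went from 69.4% to 40.5% in normal medium with it, and to 58.5% with median-ratio scaling.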

Other observations

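Since Cdkn1a is a known target of p53, a list of Trp53 and 11 other genes regulated by p53 was read from the same fits. In WT 6 of the 12 rose and 5 fell upon starvation, and in RA 5 rose and 4 fell. Of all tested genes 78.6% were called in WT, 39.2% of all as falls, and 68.7% were called in RA. The highest change in WT was that of Trp53inp1, with log2 changes of 3.01 in WT and 1.66 in RA, and the lowest that of Sesn1, with -1.62 in WT and -0.83 in RA. Mdm2, the ligase that degrades p53, rose by 0.91 in WT and by 0.35 in RA, and Bax by 0.995 and 0.51. In starved cells 5 of the 12 were higher and 6 lower in RA than in WT, where 62.9% of all tested genes were called, from -1.32 for Trp53inp1 to 0.99 for Phlda3. Cdkn1a, which is not in this list of 12, was also higher in starved RA, by 0.47. Of the list, Mdm2 (-0.55) and Bax (-0.37) were among the lower genes.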
